A study of Mus musculus with 6 samples.

Results

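The genes bound by p53 in splenic B cells were compared between mice that had received whole-body irradiation and mock mice. Both groups were C57/Bl6 animals with intact p53 (Trp53+/+), 8 weeks old. The irradiated group (B cells IR) was taken 4 h after 7 Gy, and the mock group (B cells mock) was not irradiated. B cells were separated from the other spleen cells on columns by the surface protein B220, chromatin was pooled from several animals, and each group had 1 p53 ChIP-seq library. In ChIP-seq the DNA pulled down by an antibody is sequenced, and stretches enriched in it over background are called as peaks. A peak was given to the protein-coding gene with the nearest transcription start, on mm9 with the GENCODE vM1 annotation. Of 22372 genes, 10601 had a peak in at least 1 list, and these fell into genes with a peak in mock and IR, in IR only and in mock only.

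p53 is a transcription factor that is kept at low levels by the ubiquitin ligase Mdm2 and is stabilised when DNA is broken. It binds as a tetramer to a response element made of a pair of decamers, each with a core of C, 2 bases that are A or T, and G. Its classical targets stop the cell cycle (Cdkn1a), start apoptosis through the Bcl2 family (Bbc3, Bax, Pmaip1) and restrain p53 itself (Mdm2). Resting lymphocytes are among the most radiosensitive cells of the body and die by p53-dependent apoptosis. The lists measure binding and no expression, so neither the B cell label nor the response of a bound gene could be checked in them.

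The response elements under the highest peaks are shown first, since most later comparisons refer to them. Each is printed 5′ to 3′ on the plus strand of mm9 with the 4-base core of each decamer in capitals. At genes with a peak in IR only, the highest IR peaks held the following elements, of which that of Lama4 matched the consensus at all 20 positions.
Lama4 (chr10:37960329-37960348): gggCTTGcctgaaCTTGccc
Gfpt1 (chr6:87019715-87019734): aaaCATGtcttaaCATGcct
Zmynd8 (chr2:165614555-165614574): gaaCATGttggaaCATGtcg
2610034B18Rik (chr7:87100062-87100081): gagCATGtgtgggCATGtgt
Lpin1 (chr12:16381315-16381334): ttgCATGttcataCATGccc
1700028I16Rik (chr10:82261192-82261211): gcaCAAGtctaggCAAGaca

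At genes with a peak in mock and IR, the elements below lay under the highest IR peak, and for Cdkn1a also under the second-highest. Those of Ier5 and Elmo1 had 0 mismatches and the others 1. The second Cdkn1a element lies just upstream of the annotated start, and its core sequence CATG is repeated in both decamers.
Cdkn1a, distal (chr17:29215984-29216003): aggCAAGcccgggCAAGgcc
Cdkn1a, promoter (chr17:29227873-29227892): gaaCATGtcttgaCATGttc
Psrc1 (chr3:108187574-108187593): gggCATGttgaggCATGccc
Tnfsf8 (chr4:63503367-63503386): gtaCAAGcccaggCTTGtct
Clip4 (chr17:72529124-72529143): gagCATGtctgggCTTGccg
Ier5 (chr1:156903454-156903473): agaCATGcccaggCATGtct
Elmo1 (chr13:20227242-20227261): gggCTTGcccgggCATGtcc

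Irradiation was accompanied by peaks at many genes that had none in mock. A peak in IR only was found at 9608 genes, 42.9% of all protein-coding genes, against 962 genes (4.3%) with a peak in mock and IR and 31 genes (0.139%) with a peak in mock only. In all, 10570 genes (47.2%) had an IR peak and 993 (4.44%) a mock peak. Nearly every gene bound in mock was bound again: 962 of 993 had an IR peak, or 96.9% (95% Wilson interval 95.6 to 97.8%, counting error only, as for all intervals here). At 876 of the 962 genes (91.1%) a mock peak and an IR peak covered the same sequence by at least 1 bp. Seen from the other side, 9.10% of the genes with an IR peak (8.57 to 9.66%) had a mock peak.

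With 1 library in each group no difference between mock and IR could be set against a spread between replicates, and no p-value is given. The IR list was longer, with 24507 peaks against 1413, and its smallest peak was 175 bp wide against 55 bp in mock. Read totals are not in the lists, so depth is unknown and a gene without a mock peak is a gene where none was called. The part of depth and of calling in the class sizes was not tested. With the IR list reduced to its 1413 highest peaks, the length of the mock list, 439 genes had a peak in mock and IR, 797 in IR only and 554 in mock only, and 44.2% of the mock genes had an IR peak. The deposited value of a peak, read here as −log10 of its p-value, depends on depth, so it was used only to order genes within a list. Values below 8, found at 31.6% of the mock peaks and 4.497% of the IR peaks, are under the limit given in the methods, so the scale or the limit used is not settled. A gene took the value of its highest peak in each list, so its mock and IR values can come from different sites.

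**Figure D1:**
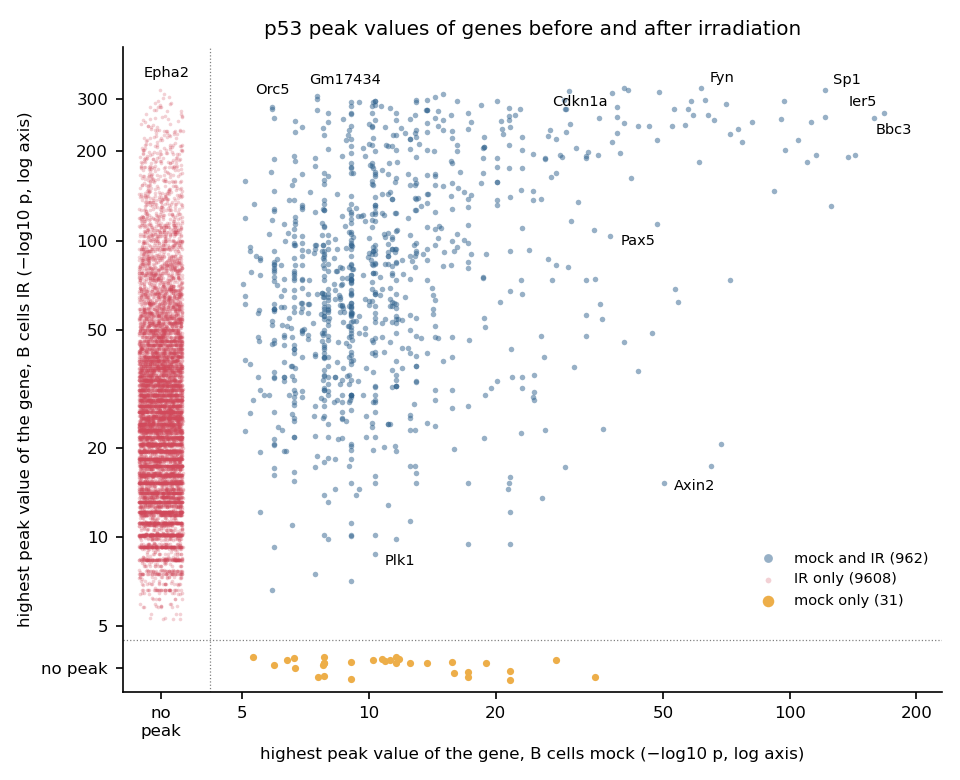
Highest peak value of each gene in B cells mock (x axis) and B cells IR (y axis), −log10 p on log axes, with 1 point per gene; genes with no peak in a list lie in the strip marked "no peak", spread at random within it. The 962 genes with a peak in mock and IR are blue, the 9608 with a peak in IR only red and the 31 with a peak in mock only yellow, and the highest red points reach the values of the highest blue ones.

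The genes with a peak in IR only had lower IR values as a group but reached the top of the list. Their median IR value was 25.3, against 77.2 for genes with a peak in mock and IR, while their highest was 323 against 326. They had a median of 1 IR peak per gene against 4, and 5526 of the 9608 had exactly 1, against 170 of the 962. Their highest IR peak had a median width of 383 bp against 712 bp. The stretch of genome nearest to the gene's starts, over which peaks were assigned to it, had a median of 53.9 kb for genes with a peak in IR only, 91.5 kb for genes with a peak in mock and IR and 39.1 kb for genes with no peak. Across the 10570 genes with an IR peak the number of IR peaks and this stretch had a Spearman rho of 0.350, a description over genes of a single list.

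The highest IR value among genes without a mock peak was at Epha2, a receptor tyrosine kinase for ephrins (323, rank 3 of the whole IR list). Its peak at chr4:140858956-140860716 lay in an intron of Epha2, 2.68 kb downstream of a start, and Epha2 had 3 further IR peaks. Next was Npffr1, a receptor for neuropeptide FF (312), whose only peak lay between genes 6.57 kb upstream. Lpin1, a phosphatidate phosphatase of lipid metabolism, followed with 304 at a peak 215 kb downstream of its start and between genes, and also had a promoter peak of 174. Ppp1r1c, an inhibitor of protein phosphatase 1, had a value of 303 at 22.8 kb upstream. None of these 4 genes had a mock peak in non-B cells either, and in non-B cells IR their values were 418 at Epha2, 548 at Npffr1, 496 at Lpin1 and 438 at Ppp1r1c.

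The other 6 of the 10 highest were 2610034B18Rik (296, Arpin in RefSeq, an inhibitor of the Arp2/3 complex), 1700028I16Rik (292), Gfpt1 (291, the entry enzyme of the hexosamine pathway), Lama4 (289, a laminin chain), Trim7 (288, a ubiquitin ligase) and Zmynd8 (283, a reader of histone marks). Only Trim7 of the 10 had its highest peak at a promoter, taken as 5 kb upstream to 2 kb downstream of a start, 0.33 kb downstream of it in the UTR. The Gfpt1 and Zmynd8 peaks lay in introns of those genes, 26.8 and 69.2 kb from the start. The Lama4 peak at chr10:37959963-37961005 was 725 kb upstream of the gene, so that nearest start is a weak guide to the gene concerned. At 6 of the 10 genes the highest peak held a response element with at most 3 mismatches, those printed above. At Epha2, Npffr1, Ppp1r1c and Trim7 none was found in the window searched, 300 bp on either side of the midpoint.

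Among genes whose peak in IR only lay at a promoter, the highest values after Trim7 were at Btbd8 (283), B630005N14Rik (262, Bmt2 in RefSeq), Rnf169 (259.6), Ephx1 (248), Lgals3bp (234), Spsb1 (233) and Ulk1 (231). These promoter genes were chosen after their values were seen. Rnf169 limits the spread of repair factors at broken DNA, Ephx1 is the microsomal epoxide hydrolase and Ulk1 is the kinase that starts autophagy. The Lgals3bp peak held an element with 1 mismatch and the Ulk1 peak one with 2, printed here as examples of elements close to a start.
Lgals3bp (chr11:118265436-118265455): agaCATGcccaagCTTGttg
Ulk1 (chr5:111243279-111243298): ggaCATGttgaggCATGtac

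Several genes with a peak in IR only carried many of them. Tbl1xr1, a subunit of the NCoR corepressor complex, had 27 IR peaks, Arid5b 24, Gadd45g 23, Bach2 21 and Lpp 20. Their highest values were 178, 50.9, 184, 98.1 and 77.1. Gadd45g belongs to the growth arrest and DNA damage family, and Bach2 is a transcription factor that holds back plasma cell differentiation. Their stretches of nearest genome ran from 321 kb at Arid5b to 1983 kb at Tbl1xr1, all longer than the median of the class. Of the 9608 genes 103 had 10 or more IR peaks, against 150 of the 962 genes with a peak in mock and IR.

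The genes with the highest IR values and a mock peak were Psrc1, a microtubule-binding protein, and the Src family kinase Fyn, both at 326. Their mock values were 40.4 and 61.5. Cdkn1a, the inhibitor of cyclin-dependent kinases, came next with 323 at a peak 12.1 kb upstream, in an intron of the lincRNA Gm16197. The Cdkn1a promoter peak had a value of 318 in IR and 41.2 in mock. Sp1, a general activator of promoters, had 321 in IR and 121 in mock at a peak 0.433 kb upstream of its start. The remaining 6 were Tnfsf8 (319 in IR, 29.9 in mock), Ppp3r1 (318 and 48.9), Clip4 (314 and 37.7), Gm1968 (312 and 15.0), Gm17434 (307 and 7.53) and Aebp2 (304 and 14.3). Tnfsf8 encodes the CD30 ligand and Ppp3r1 the regulatory subunit of calcineurin. The Clip4 peak lay 398 kb from the start of Clip4 in an intron of Alk.

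In mock the order was different. Bbc3, which encodes the pro-apoptotic protein Puma, had the highest mock value (167) and stood at rank 64 in IR (269.9), with both peaks less than 1 kb upstream of its start. Ier5, an immediate early gene, followed with 158 in mock and 259 in IR, at a peak between genes 43.6 kb downstream, and had 12 mock peaks, the most of any gene. Aff1, a subunit of the super elongation complex, had 143 and 195, Mtmr10 138 and 191, and Klhdc4 125 and 131. Myo1g, a myosin of blood cells, had 121 and 261, Zfp958 115 and 194, Zbtb20 112 and 252, and Elmo1, an activator of Rac, 109.8 and 184. At Zfp958 the highest mock and IR peaks lay at different sites. Sp1 was the only gene in the highest 10 of both lists. Of the 100 highest genes in mock 98 had an IR peak, and 26 were among the 100 highest in IR. Of the 500 highest, 188 were shared, 37.6% of either list.

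Over the 962 genes the mock and IR values had a Spearman rho of 0.333, and over the 876 with overlapping peaks 0.386. These are descriptions over genes that share 2 libraries and their depth. Of the 10 genes with the highest IR value 8 had a mock peak, of the highest 100 genes 73, and of the highest 500 genes 242 (48.4%, 44.0 to 52.8%). A mock peak was thus more frequent towards the top of the IR list, although most of the 500 highest genes had none.

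The largest climbs in rank were at genes near the floor of the mock list. Orc5, a subunit of the origin recognition complex, had 5.87 in mock (rank 956 of 993) and 283 in IR (rank 44 of 10570). Prkd2, a protein kinase D, had 5.87 and 277. Lrrc50 (Dnaaf1 in RefSeq) had 5.08 and 159, Inpp5b, an inositol phosphatase, 5.85 and 170, and Sfi1 5.33 and 133. The Orc5 peak held an element with 0 mismatches.
Orc5 (chr5:22048696-22048715): gggCAAGtccagaCAAGccc

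The largest drops in rank were at Lrp2bp (21.6 in mock, 9.46 in IR), Gm4955 (17.2 and 9.46, Ifi206 in RefSeq), Axin2 (50.2 and 15.1), Gm9961 (21.6 and 12.1) and Rpp21 (25.8 and 13.5). Axin2, a negative regulator of Wnt signalling, stood at rank 37 in mock and 8409 in IR, at peaks 88.7 and 88.8 kb from its start. Both Axin2 peaks overlapped a peak of irradiated Trp53-/- spleen, so this site was pulled down without p53. At Lrp2bp and Gm9961 the mock and IR peaks lay at different sites, and their mock site had no IR peak. None of these 5 genes had an element with at most 3 mismatches under its highest IR peak. A drop in rank is not a lower level, since values are not comparable between the lists.

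The peaks of genes bound in IR only lay closer to gene starts. The highest IR peak was at a promoter for 5373 of 9608 genes with a peak in IR only, or 55.9% (54.9 to 56.9%), and for 310 of 962 genes with a peak in mock and IR, or 32.2% (29.3 to 35.2%). It was within 1 kb of a start at 48.8% against 23.2%, and more than 50 kb away at 10.8% against 17.7%. The median distance was 1.29 kb against 10.7 kb. At 15.3% of the genes with a peak in IR only the start of another protein-coding gene lay within 5 kb of the peak, against 5.61%, so that for these the gene named is 1 of several candidates. Distal peaks had the higher IR values in both classes, with medians of 31.7 against 22.6 at promoters for IR only and 90.5 against 52.0 for mock and IR.

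**Figure D2:**
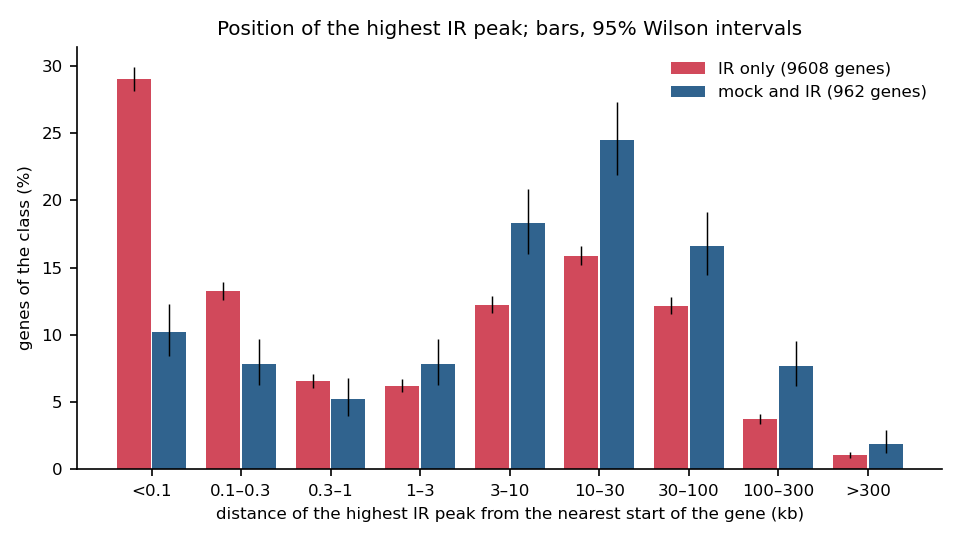
Distance of the highest IR peak from the nearest start of its gene in kb (x axis) for genes with a peak in IR only (red) and in mock and IR (blue), as percent of each class (y axis, bars from 0); whiskers are 95% Wilson intervals. Within 1 kb lie 48.8% of the IR only genes and 23.2% of the others, and beyond 10 kb the blue bars are higher.

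A response element with at most 3 mismatches was found under the highest IR peak of 1958 of 9608 genes with a peak in IR only, or 20.4% (19.6 to 21.2%), and of 288 of 962 genes with a peak in mock and IR, or 29.9% (27.1 to 32.9%). The same windows moved by 10 kb gave 2.86%, and windows around all protein-coding starts 2.72%. The search took the p53 consensus without a spacer, which reads the same on both strands, and required the C and G of both cores. Elements with 0 mismatches were found at 2.09% and 5.41% of the genes. The size of the class difference depended on the window. With at most 3 mismatches the shares were 15.9% and 17.7% within 100 bp of the midpoint. Over whole peaks, a search chosen after seeing the data, they were 20.8% and 34.9%. Over all IR values together, the difference between the classes was seen at promoter peaks and not at distal peaks. Of promoter peaks 6.66% (6.03 to 7.36%) held an element in IR only and 16.5% (12.7 to 21.0%) in mock and IR, and of distal peaks 37.8% (36.3 to 39.3%) and 36.3% (32.7 to 40.1%). Genes with an element had the higher IR values in both classes, with a median of 43.0 against 23.4 in IR only and 165 against 59.9 in mock and IR.

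When the genes with an IR peak were ordered by IR value and divided into 10 bins of 1057 genes each, mock peaks, elements and position moved together. In the lowest bin, with values from 5.27 to 11.1, 1.42% of the genes had a mock peak, and in the highest, with values from 93.6 to 326, 36.7% (33.9 to 39.7%). Among IR only genes the share with an element was 11.1% in the lowest bin, stayed at or below 14.4% up to bin 6, and was 67.1% (63.5 to 70.6%) in the highest. The share at promoters was 59.3% in the lowest bin, 68.6% in bin 4 and 17.6% in the highest. Of genes with a peak in mock and IR it was 19.8% (16.2 to 24.1%) in the highest bin. In bin 9 it was 28.7% against 31.5% of IR only genes, and in bin 8 33.3% against 47.9%. At equal rank, the genes with a peak in mock and IR did not hold elements more often: in the highest bin 58.0% (53.02 to 62.8%) did, and in bin 9 15.2% (11.1 to 20.6%) against 39.8% (36.5 to 43.2%) of the IR only genes. Among distal peaks of the highest bin the shares were 70.8% (66.8 to 74.4%) in IR only and 60.5% (54.9 to 65.7%) in mock and IR. Among promoter peaks of that bin they were close, 50% (41.1 to 58.9%) in IR only and 48.1% (37.3 to 59.0%) in mock and IR. All these shares by bin hold for the window of 300 bp on either side of the midpoint. Whole peaks, which were wider in mock and IR, were not searched by bin.

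**Figure D3:**
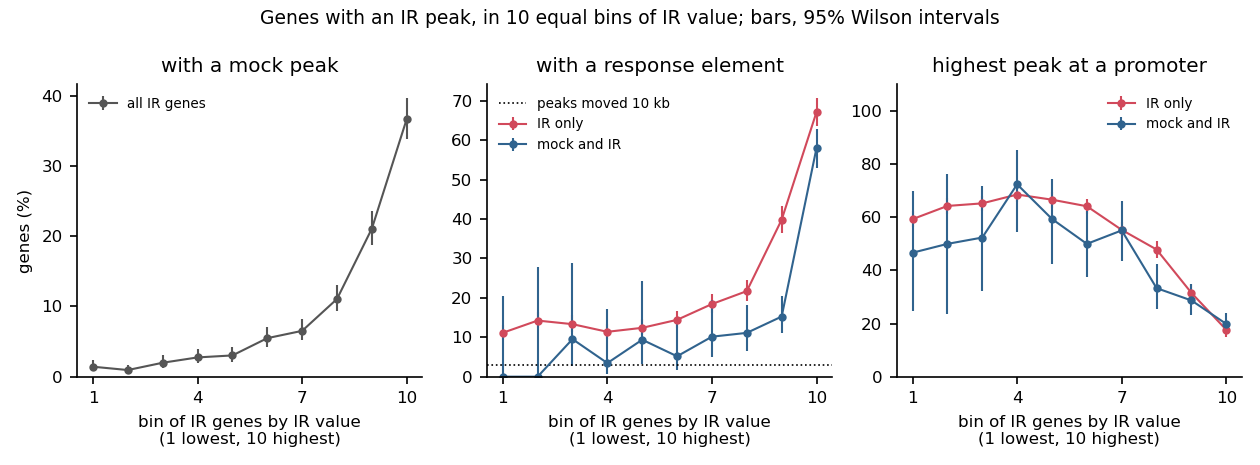
Genes with an IR peak in 10 bins of IR value (x axis, 1 lowest, 10 highest) and the percent of them (y axis) with a mock peak (left), with a response element of at most 3 mismatches under the highest IR peak (middle) and with that peak at a promoter (right), where red is IR only, blue mock and IR and grey all genes; whiskers are 95% Wilson intervals and the dotted line is the share in peaks moved by 10 kb (2.86%). The share with an element is 67.1% in the highest bin of IR only genes and 11.1% in the lowest, while the promoter share is 17.6% and 59.3%.

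The 31 genes with a peak in mock only had few and narrow peaks, as did much of the mock list. At 29 of them there was 1 mock peak, at 25 the highest peak was at most 100 bp wide, and at 11 its value was below 8. Of the 962 genes with a peak in mock and IR, 684 had 1 mock peak. The highest mock peak had a median width of 99.5 bp there and 73 bp in mock only. Of all mock peaks 31.6% had a value below 8. The highest values were at 1700110I01Rik (34.4), Rasl10a (27.9), Cd209a (21.6), Gm2244 (21.6), Rax (19.01), Zfp518b (17.2), Gm6905 (17.2), 5730508B09Rik (15.9, Fam241a in RefSeq), Mycn (15.7) and Myo7a (13.7). The Mycn peak lay in a coding exon of Mycn, a Myc family transcription factor, 0.423 kb from the start. Cd209a encodes a lectin of dendritic cells and Rax a homeobox factor of the eye.

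Absence in IR was partial at several of these genes. At Wdr46, Mrpl30 and Nme1 the mock peak overlapped an IR peak that was nearest to the start of a neighbour, H2-Ke2 (252), Mitd1 (54.4) and Nme2 (108). At 5 of the 31 an IR peak lay within 5 kb, and the mock peak of Hic2 overlapped a peak of irradiated Trp53-/- spleen. In non-B cells 15 of the 31 had a mock peak (48.4%, against 2.32% of all genes). An IR peak there was found at 11 (35.5%), against 45.2% of all genes and 6.13% of genes with no peak in B cells. Genes in mock only were picked for lacking a B cell IR peak, so all genes are not a like comparison. Mycn had a mock peak and an IR peak in non-B cells, with 27.9 and 33.5. Under 2 of the 31 mock peaks, at Klhl35 and Pak6, there was an element with at most 3 mismatches.
Klhl35 (chr7:106597959-106597978): aagCATGtgtgcaCATGctc
Pak6 (chr2:118476634-118476653): ggcCAAGcatagaCAAGcat

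The genes that arrest growth came first among the lists of p53 targets. All 25 arrest and growth control genes had an IR peak, 21 of them at the promoter, against 47.2% and 33.8% of all genes. Their median stretch of nearest genome was 73.6 kb, against 46.5 kb of all genes. A mock peak was found at 7 (28%, against 4.44% of all genes), namely Cdkn1a, Phlda3 (10.3), Btg1 (13.7), Zmat3 (26.6), Ccng1 (27.9), Btg2 (9.08) and Cdkn1b (10.3). In IR, Phlda3, an inhibitor of Akt, had 255.6 at its start, Btg1 233 at 239 kb upstream, the RNA-binding protein Zmat3 225, cyclin G1 (Ccng1) 219.8 and the antiproliferative factor Btg2 208. Cdkn1b, the p27 inhibitor, was the lowest of the 7 with 16.1. Among the 18 with a peak in IR only, the highest were Gadd45g (184), Gtse1 (179) and the kinase Plk2 (125), and the lowest Tob1 (11.1). These are known targets of p53, so their presence is no independent result.

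The peak over the Zmat3 element was centred 1.03 kb downstream of the start in an intron, that over the Gtse1 element 0.047 kb upstream and that over the Ccng1 element 0.255 kb upstream. Zmat3 had 0 mismatches and the others 1. They are printed as elements of the arrest group, chosen after the values were seen.
Zmat3 (chr3:32263253-32263272): agaCATGcctgggCTTGttt
Gtse1 (chr15:85690375-85690394): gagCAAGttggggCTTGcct
Ccng1 (chr11:40568964-40568983): aggCTTGcccgggCAGGtct

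The pro-apoptotic Bcl2 family was bound at its strongest members before irradiation as well. Of 11 genes, 9 had an IR peak (81.8%, against 47.2% of all genes) and 4 a mock peak (36.4%, against 4.44%), Bax (29.1 in mock, 298 in IR), Bbc3, Pmaip1 (10.2 and 269) and Bcl2l11 (21.5 and 264). Bax opens the outer mitochondrial membrane, Pmaip1 encodes Noxa and Bcl2l11 Bim. In IR only there were Bmf (64.4), Bid (35.2), Bad (27.7), Bak1 (15.1) and Bok (6.62), and Bik and Hrk had no peak. Of the 8 pro-survival genes, 6 had an IR peak (75%, against 47.2% of all genes) and 1 a mock peak (12.5%, against 4.44%). Mcl1 had a peak in mock and IR (6.3 and 47.2), and Bcl2 (82.6), Bcl2l1 (61.5), Bcl2a1b (30.1), Bcl2a1d (20.3) and Bcl2a1a (18.4) in IR only. Bcl2 had 20 IR peaks, the highest 158 kb into the gene and that at the promoter 7.32. The Bcl2a1 genes are near-identical copies, so their reads are uncertain. Bcl2l2 and Bcl2l10 had no peak.

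Of 29 death receptor and effector genes, 24 had an IR peak (82.8%, against 47.2% of all genes) and 7 a mock peak (24.1%, against 4.44%). The nuclease Aen had 59.0 in mock and 266 in IR, Trp53inp1 21.5 and 176, and the death receptor Fas 6.3 and 114, each at its promoter. Eda2r (7.82 and 92.0), Cradd (11.3 and 62.2), Tnfrsf1b (6.64 and 59.7) and Fadd (11.4 and 32.1, at different sites) were the others with a mock peak. Among genes with a peak in IR only, Lrdd, which encodes Pidd, had 95.2, Shisa5 84.1, Ei24 67.3, Tnfrsf10b, the TRAIL receptor, 44.0 and Apaf1, the core of the apoptosome, 31.4. No peak was listed at 5 of the 29, among them Casp6, Casp12, Tnfrsf1a and Dapk1. Of the 10 caspases, 6 had a peak in IR only (60%, against 42.9% of all genes), among them Casp8 (36.5). None had a mock peak, against 4.44% of all genes.

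Of 14 genes that are linked to the control of p53 or belong to its family, 12 had an IR peak (85.7%, against 47.2% of all genes). A mock peak was found at 2 (14.3%, against 4.44%), Mdm4 (9.49 in mock, 294 in IR) and Mdm2 (18.8 and 224). Both encode inhibitors of p53. The mock peak of Mdm2 lay 7.03 kb upstream of its start, and its promoter had a peak in IR only. Trp73, a relative of p53, had 151 at 8.69 kb upstream, Wrap53 121, the ubiquitin ligase Rchy1 108, the phosphatase Ppm1d 52.8 and Trp53 itself 31.7, all in IR only. Trp63 and Trp53bp2 had no peak. The Mdm4 peak lay in an intron of Mdm4 5.24 kb from the start and the Fas peak in an intron of Fas 1.77 kb from it, and their elements are shown as elements of a regulator and a receptor.
Mdm4 (chr1:134916872-134916891): agaCAAGgccagaCAAGccc
Fas (chr19:34366854-34366873): gggCATGtacaaaCATGtca

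Of 27 excision repair, translesion and nucleotide supply genes, 21 had a peak in IR only (77.8%, against 42.9% of all genes) and 1, the oxoguanine glycosylase Ogg1 (8.0 in mock, 21.7 in IR), in mock and IR. Among the highest were Rrm1, the large subunit of ribonucleotide reductase (225), Ercc5 (133), Ercc3 (126) and Mgmt (123.1). No peak was listed at 5 of the 27, among them Ddb2, Polh, Mutyh and Pms2. Of 28 double-strand break genes, 24 had a peak in IR only (85.7%) and 1, Mdc1 (5.95 and 34.7), in mock and IR. Their values were moderate, from 54.2 at Trp53bp1, 52.8 at Rad50 and 50 at Atr down to 9.46 at Chek1 and 9.23 at H2afx, and 22 of the 28 had an IR peak at the promoter. Brca1, Brca2 and Fancd2 had no peak. The shares with a mock peak, 3.70% and 3.57%, were near the 4.44% of all genes.

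Of 24 metabolic genes, 18 had a peak in IR only (75%, against 42.9% of all genes) and 3 in mock and IR (12.5%, against 4.3%), which were Sesn2 (11.1 in mock, 208 in IR), the glucose transporter Slc2a1 (8.3 and 63.5) and Aldh4a1 (8.0 and 53.5). Lpin1 (304), the thioredoxin inhibitor Txnip (125) and Sesn1 (95.2) led the genes with a peak in IR only, and Gls2, Slc2a4 and Abhd4 had no peak. The sestrins Sesn1, Sesn2 and Sesn3 (60.0) all had IR peaks and restrain mTORC1. Of 17 genes that restrain PI3K or mTOR, 3 had a peak in mock and IR (17.6%, against 4.3% of all genes). Among them were Ddit4 (10.2 and 243, at different sites) and Inpp5d, which encodes Ship1 (10.01 and 90.6). A peak in IR only was found at 11 (64.7%, against 42.9% of all genes), led by Tsc2 (129.8). The highest Ddit4 peak was 3.14 kb downstream and held an element with 0 mismatches.
Ddit4 (chr10:59411250-59411269): agaCTAGtccaggCAAGtct

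Autophagy and lysosome genes had a peak in IR only at 15 of 21 (71.4%, against 42.9% of all genes) and in mock and IR at 2 (9.52%, against 4.3%), Uvrag (10.7 and 52.8) and Map1lc3b (6.64 and 25.3). Ulk1 (231), Atg7 (195) and Lamp1 (114) were the highest, and Dram1, Becn1, Ctsf and Sqstm1 had no peak.

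B cell genes stood out for peaks in mock. All 39 genes of B cell identity and receptor signalling had an IR peak, at the promoter in 39 of 39, and 19 of them (48.7%) had a mock peak, against 4.44% of all genes. Their median IR value was 65.8, against 27.2 over all genes with an IR peak, and together they had 311 IR peaks. The median stretch of nearest genome of these genes, 54.96 kb, was longer than the 46.5 kb of all genes.

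**Figure D4:**
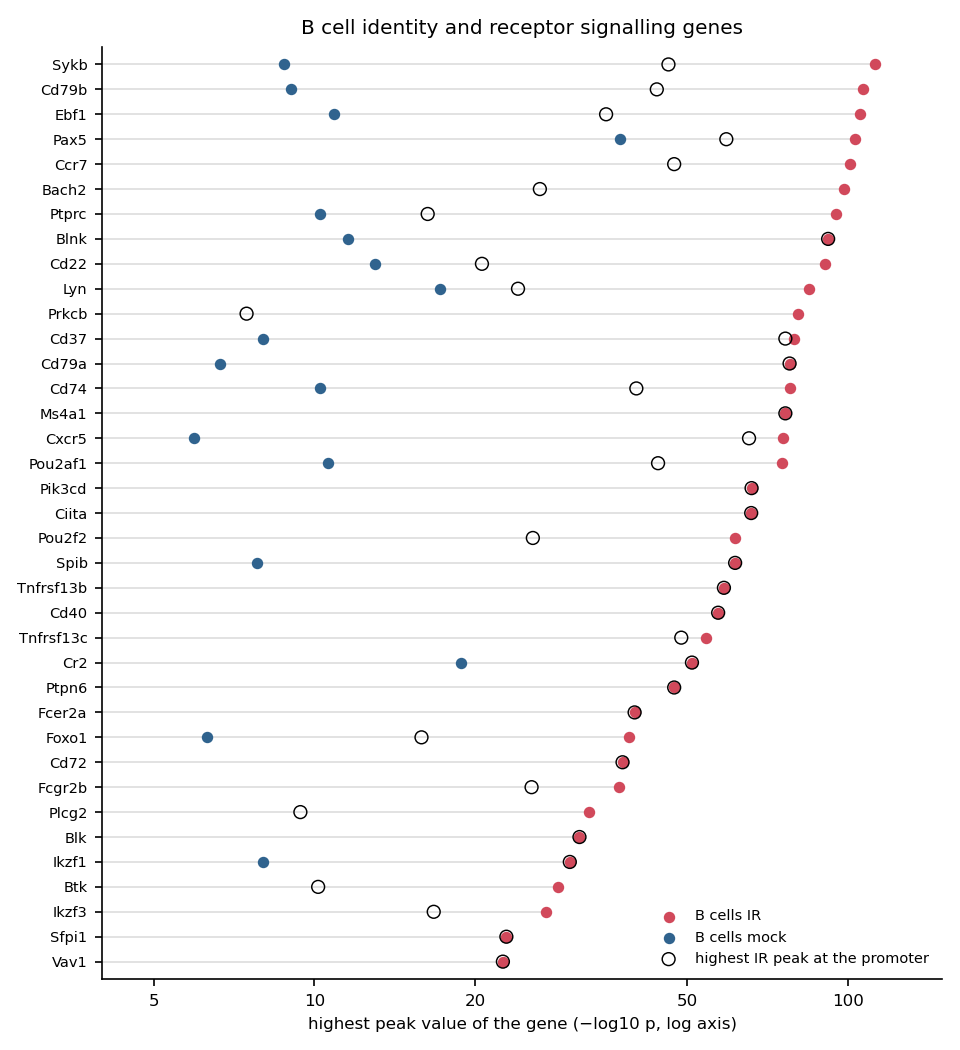
Highest peak value (x axis, −log10 p, log axis) of 37 of the 39 B cell identity and receptor signalling genes (y axis) in B cells IR (red) and B cells mock (blue), with the value of the highest IR peak within the promoter as an open circle; a gene without a blue point had no mock peak. The IR values run from 22.6 at Vav1 to 112 at Sykb, and 17 of the 37 genes plotted have a mock peak.

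The signalling chains of the B cell receptor and its kinases ranged widely. Sykb, the gene of the kinase Syk, had 8.76 in mock and 112 in IR, and Cd79b, a signalling chain of the receptor, 9.05 and 106. Cd79a, the other chain, had 6.64 and 77.7, both at the start. The adaptor Blnk had 11.5 and 91.8, the inhibitory lectin Cd22 12.97 and 90.6, and the kinase Lyn 17.2 and 84.4. The highest mock and IR peaks of Cd79b, Blnk, Cd22 and Lyn lay at different sites. The kinases Btk (28.6) and Blk (31.4) and the phospholipase Plcg2 (32.6) had a peak in IR only, below the median of the list.

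Among the transcription factors of the lineage, the highest IR peak lay far from the start in some and close to it in others. Ebf1 had 32 IR peaks and 3 mock peaks (10.9 in mock, 105 in IR), and its highest IR peak lay 320 kb into the gene. Pax5, the commitment factor of B cells, had 37.4 in mock at 39.3 kb and 103 in IR at 172 kb downstream of its start, both in the gene, and its IR promoter peak was 59.1. Pou2af1 had 10.6 and 75.3, Spib 7.82 and 61.4, Foxo1 6.3 and 38.9, and Ikzf1 8.0 and 30.1. The highest mock and IR peaks of Ebf1, Pou2af1, Foxo1 and Ikzf1 also lay at different sites. Bach2 (98.1), Pou2f2 (61.5), Ikzf3 (27.2) and Sfpi1, which encodes PU.1 (22.9), had a peak in IR only. The highest IR peak was 0.689 kb from the start at Sfpi1, 1.46 kb at Ikzf1, 2.34 kb at Spib and 2.57 kb at Pou2f2. Of the surface proteins, Ptprc, the gene of CD45 and its B220 form, had 10.3 and 95.04, Cd37 8.0 and 79.1, Cd74 10.2 and 77.7, Cxcr5 5.95 and 75.4, and Cr2 18.9 and 51.0. Of these only Cxcr5 had its highest mock and IR peaks at the same site. Ms4a1, which encodes CD20 (76.3), Ccr7 (100.6), Cd40 (57.1) and Cd72 (37.8) had a peak in IR only. Other members with a peak in IR only were Prkcb, Pik3cd, Ciita, Tnfrsf13b, Tnfrsf13c, Ptpn6, Fcer2a, Fcgr2b and Vav1, from 22.6 to 80.6. The symbol Ciita belongs to 2 gene identifiers in the annotation, and the second, which is not in the list, had 12.97 in mock and 138 in IR.

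In non-B cells 39 of these 39 genes also had an IR peak, and 8 (20.5%) a mock peak, against 2.32% of all genes there.

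Germinal centre and plasma cell regulators had a peak in mock and IR at 7 of 19 (36.8%, against 4.3% of all genes), in IR only at 10 (52.6%, against 42.9%) and none at 2, among them S1pr2. Their median stretch of nearest genome was 96.3 kb, against 46.5 kb of all genes. The highest was 2010001M09Rik, the gene of Mzb1, with 275 in IR only. Cd38 had 15.0 in mock and 237 in IR, Mef2c 11.1 and 91.8, the repressor Bcl6 6.64 and 73.3, Irf4 10.7 and 47.2, and Sdc1 12.5 and 41.8, besides Fas and Pax5, which both lists hold. The highest mock and IR peaks of Mef2c, Bcl6, Irf4 and Sdc1 lay at different sites. At Bcl6 the mock peak was 3.34 kb downstream and the IR peak 142 kb upstream. Mef2b (159) and Tnfrsf17, the receptor BCMA (89.4), had a peak in IR only.

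Genes of other blood lineages were set beside these. Of 29 T, NK and myeloid identity genes 15 had an IR peak (51.7%, near the 47.2% of all genes), 6 of them at the promoter (20.7% against 33.8%). A mock peak was found at 3 (10.3%, above the 4.44% of all genes). These were Klrb1c (17.2 in mock, 27.7 in IR, at different sites), Emr1 (11.6 and 52.8) and Cd3d (5.47 and 45.9). The highest IR values were at Zap70 (106), Bcl11b (67.3), Cebpb (61.2) and Nkg7 (53.3). No peak was listed at 14, among them Cd3e, Cd3g, Cd8a, Foxp3, Ncr1, Prf1, Csf1r, Lyz2, Cd14, Cebpa and Mpo. These are binding values and cannot serve as a measure of how many such cells the B cell fraction held.

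Of 42 NF-kB, Toll-like receptor and interferon genes 36 had a peak in IR only and 2 in mock and IR, Tnfaip3, the A20 inhibitor of NF-kB (18.6 in mock, 169 in IR) and Traf6 (7.76 and 82.6). Ikbkg (140), the interferon-induced Mx1 (128), Nfkb2 (96.4), Tlr4 (93.6) and Tlr1 (92.0) were the highest of the others. Tlr8, Irf3, Isg15 and Oas1a had no peak. The share with a mock peak, 4.76%, was near that of all genes, and that with an IR peak, 90.5%, above it.

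Genes of S phase and mitosis, many of which are repressed after p53 activation, had a peak in IR only at 21 of 35 (60%, against 42.9% of all genes), in mock and IR at 4 (11.4%, against 4.3%) and none at 10. Cyclin E2 (Ccne2) had 9.08 in mock and 169 in IR at a peak 15.0 kb upstream, Ccne1 9.05 and 48.6, Ccna2 12.97 and 47.6, and Plk1 10.3 and 8.72. The highest mock and IR peaks of Ccne1 and Ccna2 did not overlap. Ect2 (158), Birc5, the gene of survivin (125), and Mad2l1 (105) were the highest in IR only. No peak was listed at Mcm4, Mcm6, Orc1, Cdk2, Ccnb2, Aurka, Bub1, Cdc25b, Foxm1 or Kif20a. In the E2F, Myc and Max network, 15 of 22 genes had a peak in IR only (68.2%, against 42.9% of all genes). A peak in mock and IR was found at 1 (4.55%, near the 4.3% of all genes). Myc had 18.5 and 287 at a peak 51.9 kb downstream, in an intron of the lincRNA Pvt1, and carried 25 IR peaks. Mxi1, an antagonist of Myc, had 235 and E2f3 142 in IR only, Mycn a peak in mock only, and E2f5, E2f6, E2f7, Tfdp1 and Mxd3 none. Of 9 Src family kinase genes, Fyn and Lyn had a peak in mock and IR (22.2%, against 4.3% of all genes). In IR only there were 6 (66.7%, against 42.9%), with values from 19.5 at Src to 57.1 at Fgr, and Frk had none. The median stretch of nearest genome of the 9 genes was 116 kb, against 46.5 kb of all genes.

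Gene families defined by their symbols differed widely in the share with an IR peak. Among families of at least 10 genes, the highest were the cytosolic ribosomal protein genes, with 78 of 84 (92.9%), and the RNA polymerase subunits, with 25 of 27 (92.6%). Of the ribosomal protein genes 75 (89.3%, against 33.8% of all genes) had an IR peak at the promoter. A mock peak was found at 11 of them (13.1%, against 4.44%). Rps27l (15.0 in mock, 255 in IR), Rplp1 (20.6 and 252) and Rps19 (43.6 and 244) led the ribosomal protein genes. Polr3d (58.5) and Polr2h (48.6), both in IR only, led the RNA polymerase subunits. The median IR value of the RNA polymerase genes, 23.5, was below the 27.2 of all genes with an IR peak. Proteasome subunits (76.9%), mitochondrial ribosomal proteins (76.6%), genes named Eif (77.6%) and Rab GTPases (71.6%) were also above the 47.2% of all genes, with mock shares of 2.99 to 5.19%.

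Families of tissue-restricted genes were at the other end. Of 1113 olfactory receptor genes 40 (3.59%) had an IR peak, of 322 vomeronasal receptor genes 15 (4.66%), of 51 keratins 5 (9.80%), of 36 protocadherins 4 (11.1%) and of 98 cytochrome P450 genes 16 (16.3%). Some single members were high all the same, as Olfr545 (18.5 in mock, 156 in IR), Olfr543 (6.58 and 154) and Cyp4f16 (10.3 and 140). Of 40 Hox genes 9 had a peak in IR only (22.5%, against 42.9% of all genes), led by Hoxd1 (37.8). None had a mock peak, against 4.44% of all genes.

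Families of regulators lay between. Among the 32 TNF and TNF receptor superfamily genes 18 had a peak in IR only (56.25%, against 42.9% of all genes). A peak in mock and IR was found at 4 (12.5%, against 4.3%). These were Tnfsf8, Tnfsf4, the OX40 ligand (22.3 and 264), Tnfrsf21 (34.2 and 109) and Tnfrsf1b. Tnfsf18 (177) was the highest in IR only. Chemokine receptors had a peak in mock and IR at 3 of 19 (15.8%, against 4.3%). These were Ccr4 (13.7 and 275), Cxcr4 (6.68 and 254, at 176 kb upstream) and Cxcr5. Klf13 (9.69 and 205) was the only one of 17 Kruppel-like factors with a mock peak (5.88%, near the 4.44% of all genes). Slfn2 (15.6 and 186) was the only one of 8 Schlafen genes (12.5%). Of 25 dual-specificity phosphatases 12 had a peak in IR only (48%, near the 42.9% of all genes), led by Dusp22 (162). A peak in mock and IR was found at 2 (8%, against 4.3%), Dusp10 (6.95 and 132) and Dusp5 (11.6 and 61.2), in both at different sites. Tripartite motif genes (50%), F-box genes (51.3%) and solute carriers (49.6%) had shares with an IR peak near the 47.2% of all genes. None of the 76 F-box genes had a mock peak, against 4.44% of all genes.

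Among the 67 replication-dependent histone genes 39 had a peak in IR only (58.2%, against 42.9% of all genes) and 5 in mock and IR (7.46%, against 4.3%), led by Hist1h4h (11.7 in mock, 184 in IR) and Hist1h2bp (12.8 and 127). Their median IR value, 18.2, was low. These genes lie in tight clusters, with a median stretch of nearest genome of 6.72 kb, and near-identical copies share reads. Of the 371 genes named Zfp 199 had a peak in IR only (53.6%, against 42.9% of all genes). A peak in mock and IR was found at 20 (5.39%, near the 4.3% of all genes), and Zfp36l1 was highest with 57.2 in mock and 279 in IR.

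**Figure D5:**
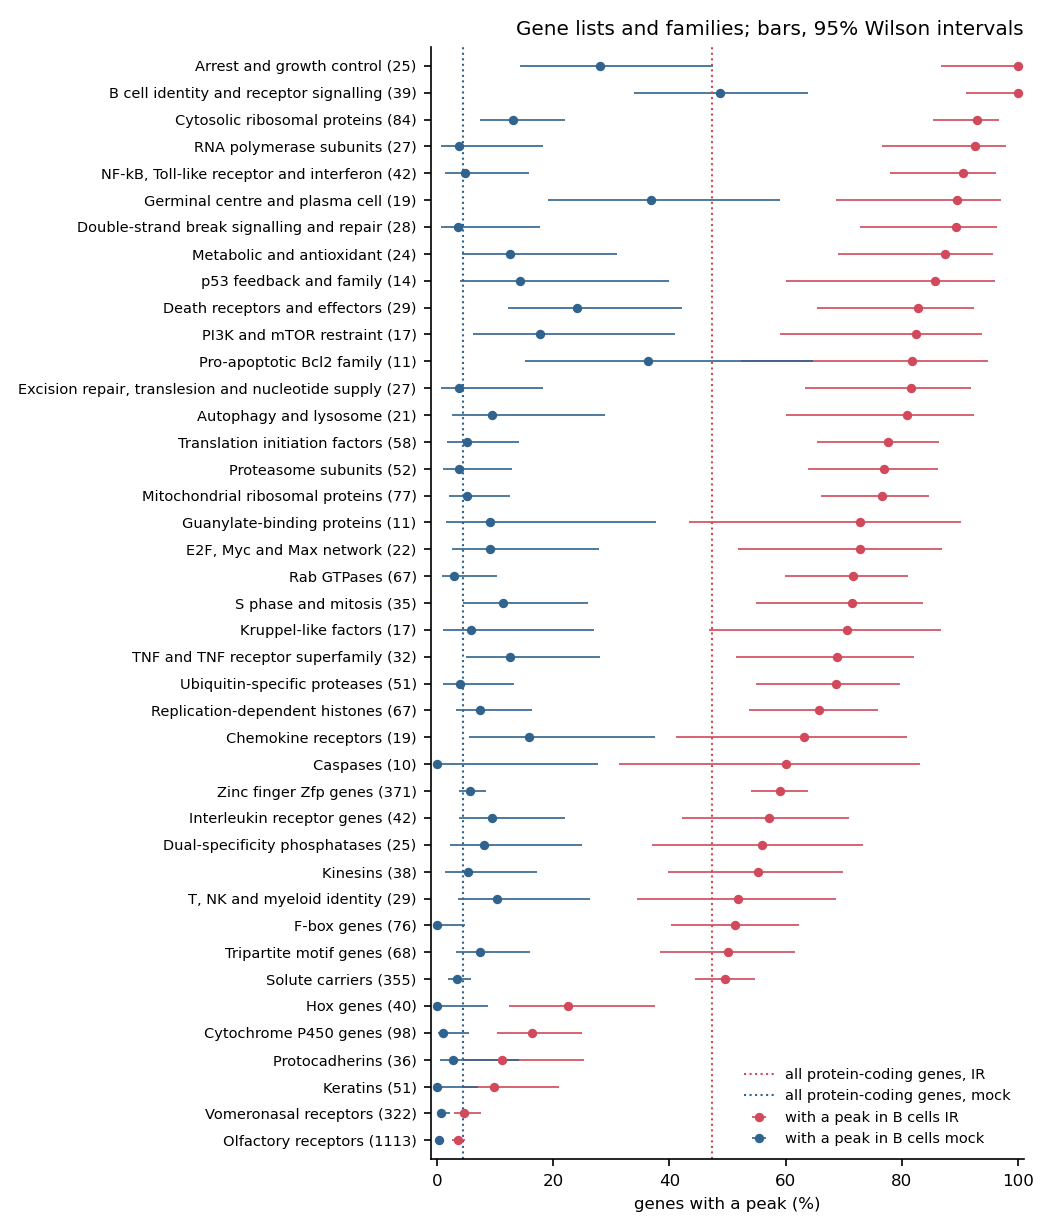
Percent of genes (x axis) of each list or family of at least 10 genes (y axis, number of genes in parentheses) with a peak in B cells IR (red) and B cells mock (blue); whiskers are 95% Wilson intervals and dotted lines the shares of all protein-coding genes, 47.2% and 4.44%. B cell identity genes have the highest mock share (48.7%), and olfactory receptors the lowest IR share (3.59%).

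The classes were last set beside the non-B cells of the same study and the spleen without p53. Of the 9608 genes with a peak in IR only, 8422 (87.7%, 87.0 to 88.3%) also had an IR peak in non-B cells, against 45.2% of all genes. A non-B mock peak was found at 97 of them (1.01%), against 2.32% of all genes and 0.0765% of genes with no peak in B cells. Genes in IR only were picked for lacking a B cell mock peak, so all genes are not a like comparison. The share with a non-B IR peak was 54.3% in the lowest bin by B cell IR value and 669 of 669 in the highest. Of the 962 genes with a peak in mock and IR, 951 (98.9%, against 45.2%) had an IR peak in non-B cells. A mock peak there was found at 399 (41.5%, 38.4 to 44.6%, against 2.32%). In irradiated Trp53-/- spleen, where the antibody has no target, 83 peaks were listed. None of the 9608 highest IR peaks of genes with a peak in IR only overlapped one of them (0 of 9608, 0 to 0.0400%), and 4 of the 962 of genes with a peak in mock and IR did.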

How the data were processed

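p53 ChIP-seq peak lists of B cells mock and B cells IR were analysed, 1 library each, with 3 further lists as comparison, those of the non-B fraction of either group and of irradiated Trp53-/- total spleen. The input library was not analysed here. The authors aligned reads to mm9 with BWA 0.6.2 and called peaks per library with MACS, and the deposited value, in a column without header, was read as the −log10 p-value of the peak, not normalised between libraries. That reading and the p-value limit in the methods disagree, since under that limit no value would be below 8, yet the lists start at 5.01 in mock and 5.27 in IR. Ranks within a list do not depend on it if the column is any rising function of significance. Read depth is not in the files, so counts of peaks depend on a depth that is unknown.

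Each peak was assigned by its midpoint to the nearest of 46028 starts of protein-coding transcripts (GENCODE vM1, 22372 genes), ties to all genes. Immunoglobulin genes have other biotypes and are not among them. A gene took its highest peak value in each list. Response elements were searched within 300 bp of the midpoint as a pair of decamers without spacer, in which positions 4 and 7 of each decamer had to be C and G, with at most 3 mismatches to the p53 consensus in 20 bases. Intervals are 95% Wilson intervals. No test between groups was possible with 1 library a group. RefSeq symbols were used for names only.

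Genes were named by a rule: the 10 highest of each class, for genes with a peak in mock and IR by either value, the 5 genes with a peak in IR only and the most IR peaks, the 5 largest climbs and drops in rank, and from each of 17 lists the highest members and those with a mock peak or none. Family leaders and promoter genes were added after their values were seen. The genes of interest and all lists were chosen with earlier results of these data known, and the patterns of 3 families were corrected after values were seen. Genes are counted by identifier, and 140 symbols belong to several genes, of which a list takes one. The assignment of peaks to genes and classes and the element search were tested on simulated data, and the overlap of peaks was not. Some members of the lists, counted in the totals, are not reported here by name. The work was done in Python 3.11.15 (pandas 2.3.3, numpy 2.4.6, scipy 1.17.1, pysam 0.24.0), with samtools 1.23.1 for sequence and matplotlib 3.10.9 for plots.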

Additional observations from a re-analysis of the deposited data

Results flagged for a closer look

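At 6 genes the calls by gene were opposite in the 2 compartments, with a peak in IR only in one and in mock only in the other, and this difference was not tested. At Pou4f1, Gm9797, Vps54 and Nck1 the peaks of B cells and non-B cells were at different sites, so no single site was opposite there. Pou4f1 (value 18.36) and Gm9797 (17.27) had a peak in IR only in B cells and in mock only in non-B cells. Atp5b (10.72), Klhl35 (7.82), Vps54 (6.4) and Nck1 (5.31) had a peak in mock only in B cells and in IR only in non-B cells.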

How the results depend on the processing

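Of 48 alternative values 28 stayed close to the reported ones and 20 moved, where a count within a ratio of 1.5 was called close. With peaks of value at least 8 alone, 697 genes had a peak in mock and IR, 9657 in IR only and 21 in mock only, which that rule calls close. With promoter peaks alone, 335 genes had a peak in mock and IR, 17 in mock only, and 95.2% of mock genes had an IR peak. With every gene within 5 kb of a peak, the counts were 447 in mock and IR and 11 in mock only. With the IR list reduced to the length of the mock list they were 439 in mock and IR, 797 in IR only and 554 in mock only, and the share was 44.2%, since fewer IR peaks entered. There, more mock genes lacked an IR peak than had one, the reverse of the order with the full list. When mock and IR peaks of a gene had to overlap, 117 genes were in mock only and the share was 88.2%. The share of highest peaks with an element was, in IR only and in mock and IR, 14.8% and 24.0% at 2 mismatches, 27.8% and 36.2% at 4, and 15.9% and 17.7% within 100 bp. Searching the whole peak, chosen after seeing the data, gave 20.8% in IR only and 34.9% in mock and IR. Promoters of 1 kb on either side held 48.8% and 23.2%. No paired analysis was possible because mock and IR were single libraries, and leaving out a replicate could not be tried.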
